A study of Mus musculus with 221 samples.

Results

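The genes described here are 51 regulators and effectors of the cell cycle, of 78317 genes in the transcript reference, followed in 9 clusters of single mouse embryo cells at and around the hemogenic endothelium (HE). They were taken by symbol from a list with 22 genes of DNA replication (S), 24 genes of late G2 and mitosis (G2/M) and 5 genes of the G1 decision, and all 51 had at least 1 count. HE is the endothelium from which blood cells emerge in the embryo, in the aorta-gonad-mesonephros (AGM) region and in the yolk sac (YS). Full-length Smart-seq2 cDNA of 221 single cells was sequenced on 3 nanopore runs, which read whole cDNA molecules, and 208 cells that passed a limit on library size were used.

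All cells came from embryos of Runx1b-RFP and Gfi1-GFP reporter lines and were untreated. The paper describes mice with a single reporter or with both for its HE-enriched YS cells. Per the labels, AGM cells were sorted at E9.5 and E10.5 as RUNX1-positive, KIT-negative, CDH5-positive, CD41-negative and CD45-negative, with or without GFI1. YS cells were sorted at E9, E9.5 and E10.5 as RUNX1-positive, KIT-positive, CD31-positive, CD41-negative and CD45-negative, again with or without GFI1, so the KIT gate differed between the tissues. The groups were early HE-AGM (cluster AGM_3, 29 cells), late HE-AGM (AGM_4, 20 cells), the cells labelled HE-Hb (AGM_5, 21 cells, tissue given only as mouse embryo), early and late HE-YSA (YS_m1, 23 cells, and YS_m2, 29 cells), the LMP-skewed YS progenitor (YS_p1, 17 cells), early and late HE-YSP (YS_b2, 25 cells, and YS_b3, 24 cells) and the EMP-skewed YS progenitor (YS_p2, 20 cells). HE-AGM, HE-YSA and HE-YSP below are the early and late clusters of each pooled, with 49, 52 and 49 cells. The clusters had been drawn by the authors from short reads of cDNA of the same cells, with these genes among those measured, so differences between clusters are descriptions.

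A cell that leaves G1 loads the MCM helicase on its DNA, switches on nucleotide synthesis and the replication fork in S phase, and then builds up cyclin B with the kinase CDK1, the Aurora and Polo kinases and the spindle machinery for mitosis. The S genes are controlled by E2F factors, and many G2/M genes by the DREAM and MuvB complexes through a cell cycle homology region (CHR) in the promoter, often with CCAAT boxes that bind NF-Y. D cyclins with their CDK partners open the way out of G1, and p21 (Cdkn1a) and p27 (Cdkn1b) hold the kinases back.

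Letters of these sites were searched in the members' promoters. RefSeq promoters (GRCm38.p6, 250 bases before to 50 bases from the start of the gene) were found for 41 of the 51 members. Searched on both strands, CCAAT was in 18 of 20 G2/M promoters and in 11 of 18 S promoters, against 41.1% of 27025 genes, and TTTGAA, the core of the CHR, was in 14 of 20 G2/M promoters and in 3 of 18 S promoters, against 20.2% of genes. By promoter in place of gene, 37.4% and 17.9% of 32851 windows of the same length held them. Both TTTGAA and CCAAT were in 14 of 20 G2/M promoters and in 2 of 18 S promoters, against 7.97% of genes. TTTCCCGC or TTTGGCGC, letters of E2F sites, were in 5 of 18 S promoters (Mcm3, Mcm5, Mcm6, Mcm7 and Cdc6) and in 0 of 20 G2/M promoters, against 1.80% of genes. A pair of CCAAT matches in Ube2c shared 2 bases, and no other matches in the members overlapped. Shown here are an MCM promoter with both E2F forms and the promoters of the G2/M genes Top2a, Cks1b and Cdk1. Matches are in capitals on whichever strand they read (the reverse form of CCAAT reads ATTGG and that of TTTGAA reads TTCAAA):
Mcm3, chr1:20820263-20820562, minus strand: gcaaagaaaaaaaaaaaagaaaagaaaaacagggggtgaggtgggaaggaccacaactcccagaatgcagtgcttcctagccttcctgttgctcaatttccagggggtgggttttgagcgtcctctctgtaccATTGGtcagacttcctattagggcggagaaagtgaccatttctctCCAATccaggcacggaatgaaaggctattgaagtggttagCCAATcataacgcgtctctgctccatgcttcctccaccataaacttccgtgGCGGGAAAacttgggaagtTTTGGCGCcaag
Top2a, chr11:99024140-99024439, minus strand: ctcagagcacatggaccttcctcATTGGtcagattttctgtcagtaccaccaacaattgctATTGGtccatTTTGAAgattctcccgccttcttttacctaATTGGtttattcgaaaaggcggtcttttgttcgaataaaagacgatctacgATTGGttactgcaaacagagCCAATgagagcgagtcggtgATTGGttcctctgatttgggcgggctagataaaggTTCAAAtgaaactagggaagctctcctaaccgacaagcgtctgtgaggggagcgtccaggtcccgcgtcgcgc
Cks1b, chr3:89418242-89418541, minus strand: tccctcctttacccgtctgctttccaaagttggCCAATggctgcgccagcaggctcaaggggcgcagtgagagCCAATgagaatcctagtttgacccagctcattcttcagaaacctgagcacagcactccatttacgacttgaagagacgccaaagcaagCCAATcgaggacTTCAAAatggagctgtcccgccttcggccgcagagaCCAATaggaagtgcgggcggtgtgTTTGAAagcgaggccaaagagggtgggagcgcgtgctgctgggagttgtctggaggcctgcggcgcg
Cdk1, chr10:69352863-69353162, minus strand: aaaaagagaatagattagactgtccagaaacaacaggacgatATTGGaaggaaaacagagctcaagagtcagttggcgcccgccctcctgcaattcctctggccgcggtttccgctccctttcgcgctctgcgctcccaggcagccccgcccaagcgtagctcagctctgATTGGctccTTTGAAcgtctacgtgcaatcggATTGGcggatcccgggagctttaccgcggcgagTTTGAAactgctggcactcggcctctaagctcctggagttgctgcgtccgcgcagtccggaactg
Reversed, the letters TTTCCCGC read GCGGGAAA, as in Mcm3. Mcm3 holds 3 CCAAT boxes and 2 matches of E2F letters, Top2a 6 CCAAT boxes and 2 CHR cores, Cks1b 4 and 2, and Cdk1 3 and 2. A match is a description of these letters and not of binding in these cells.

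Each cell is its own library and no embryo is named, so each group counts as 1 sample. No test between groups was possible and no p-value is given. Counts were summed over the cells of a group and expressed as counts per 1000000 counts (CPM). The error given with a level or a ratio is the 95% counting interval, which covers counting error only, and the ratios within nanopore runs 1, 2 and 3 stand beside it. A member was counted in a comparison where both groups together held at least 20 counts, and called higher or lower where the summed CPM differed at least 2-fold. In such sums fewer cycling cells and less RNA per cycling cell cannot be told apart. Cell totals ran from 18131 to 125339 counts, with a median of 59518.5 in AGM and 33853.5 in YS cells. AGM and YS cDNA belonged to separate cDNA projects, except for 1 YS_m1 cell, so tissue and cDNA project cannot be told apart. Besides that cell (YS_m1 cell 1), the labels gave YS_m1 cell 4 and YS_m2 cell 6 library names of AGM. Without these 3 cells the G2/M sum differed by 0.80 on the log2 scale in HE-AGM over HE-YSA, by -0.50 in HE-YSA over HE-YSP, by 0.11 in YS_m2 over YS_m1 and by 0.90 in YS_p1 over YS_m2, and the S sum by 0.14, -0.21, 0.07 and 0.09, against the values over all cells given with each comparison. Endothelial marker sums were 2414 CPM in AGM_3 against 262 CPM in AGM_5, 3207 in YS_m1 against 532 in YS_p1 and 3655 in YS_b2 against 296 in YS_p2, and macrophage and YS endoderm markers were at most 15.96 and 9.7 CPM in every cluster. Erythroid markers summed to 358 CPM in AGM_3, where 1 cell held 11877 CPM, and to at most 51.6 CPM in the other clusters. Megakaryocyte markers summed to between 8.33 CPM (YS_m1) and 104.6 CPM (YS_b2). Mesenchyme markers summed to 171.6 CPM in AGM_5, from Dlk1 alone with the other 5 at 0, to 0 in AGM_4 and to at most 30.9 CPM in the other clusters. The part of these cell types in the results was not tested.

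Cells of every cluster expressed S and G2/M genes, and single cells of a cluster differed far more than the clusters did. The S sum was lowest in early HE-YSA at 2338 CPM and highest in the EMP-skewed progenitor at 3796 CPM, with 2599 CPM in AGM_3, 2956 in AGM_4, 2700 in AGM_5, 2524 in YS_m2, 2724 in YS_p1, 2494 in YS_b2 and 3291 in YS_b3. Sums of the G2/M genes ranged more widely, from 2008 CPM in YS_m1 and 2103 in YS_m2 to 3802 in AGM_4 and 3900 in YS_p1, with 3353 in AGM_3, 3441 in AGM_5, 3104 in YS_b2, 2643 in YS_b3 and 2845 in YS_p2.

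Over the 3 runs together both HE-YSA clusters stood lowest in G2/M, but in no single run were both the lowest. By run the G2/M sum was 3424, 2355 and 677 CPM in YS_m1 and 1600, 2537 and 2367 CPM in YS_m2. YS_b2 was at 2320 CPM in run 1, YS_p2 at 1568 CPM in run 2 and YS_b3 at 2118 CPM in run 3. Both HE-YSA clusters held cells with hardly any G2/M signal next to cells with a great deal. In YS_m1 the lowest cell had 85.1 CPM of G2/M genes, the median cell 1191 and the highest 10078 CPM. In YS_m2 they had 0, 1200 and 8335 CPM. The median cell was higher in each other cluster, at 3638 CPM in AGM_3 (from 55.1 to 8447), 2825 in AGM_4 (from 574 to 7817), 2587 in AGM_5 (from 869 to 6742), 3454 in YS_p1 (from 911 to 7011), 2462 in YS_b2 (from 336 to 8933), 2142 in YS_b3 (from 217 to 9767) and 2222 in YS_p2 (from 715 to 7525). The ranges of all 9 clusters overlapped. Among cells thinned to 15000 counts the median cell held a count for 7 of 24 G2/M genes in YS_m1 and for 8 in YS_m2, and for 9 to 13 in the other clusters. For the 22 S genes the medians lay between 10 and 13 in all clusters.

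**Figure D1:**
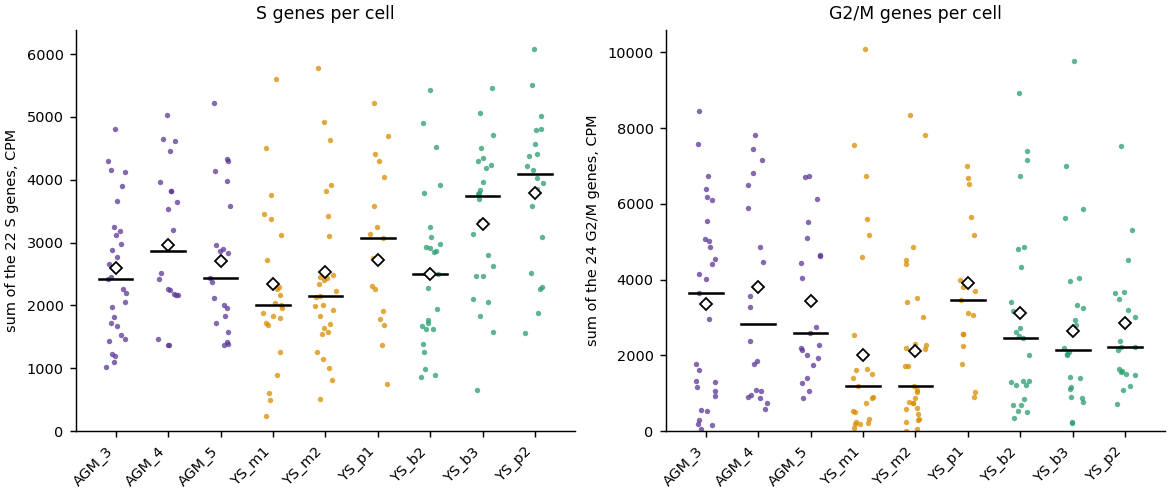
S sum (22 genes) and G2/M sum (24 genes) of each cell in CPM, by cluster, where dots are cells, lines the median cell and diamonds the CPM of the summed counts. In the HE-YSA clusters YS_m1 and YS_m2 the median cell lies at 1191 and 1200 CPM of G2/M genes, below the other clusters, while the highest cells reach 10078 and 8335 CPM.

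The relation between S and G2/M transcripts over cells differed in sign between clusters. Spearman's rho between the S and the G2/M sum over cells was -0.76 in AGM_5 (21 cells), -0.68 in YS_p1 (17 cells) and -0.64 in YS_p2 (20 cells). It was -0.33 in AGM_4 and -0.28 in YS_b3, near 0 in AGM_3 (0.01) and YS_b2 (0.00), and positive in YS_m1 (0.48) and YS_m2 (0.14). Over the numbers of members with a count in thinned cells it was -0.54 in AGM_5, -0.49 in YS_p1, -0.31 in YS_p2, -0.38 in AGM_4, -0.23 in YS_b3, -0.17 in YS_b2, 0.21 in AGM_3, 0.49 in YS_m1 and 0.39 in YS_m2. The sums of a cell share its total count, and cells of a cluster may share an embryo, so these are descriptions.

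The sums of the G2/M and of the G1 genes were higher in HE-AGM than in HE-YSA. The G2/M sum was 3541 CPM in HE-AGM and 2061 CPM in HE-YSA, a log2 ratio of 0.78 (0.73 to 0.83), with 0.60, 0.74 and 1.06 in the 3 runs. The S sum, 2748 against 2442 CPM, differed by 0.17 (0.12 to 0.22). The sum of the 5 G1 genes was 443 against 238 CPM, a log2 ratio of 0.89 (0.74 to 1.05) with 0.84, 0.06 and 1.25 by run. Of 49 counted members 16 were at least 2-fold higher in HE-AGM and 0 lower, where 31.8% of all genes were higher and 13.3% lower. The 12 of 23 G2/M members called higher stand against that 31.8%, as do 2 of 21 S members. The median log2 ratio was 1.09 for G2/M, 0.20 for S, 0.54 for the 5 G1 genes and 0.31 for all genes. Of the G1 genes 4 had a ratio above 0, and Cdkn1a lay below it. Scaling by DESeq2 size factors in place of totals moved the median of all genes by 0.19 toward HE-AGM and gave 19 higher and 0 lower members.

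The proliferation antigen gene Mki67, which codes for a protein coating mitotic chromosomes, had the largest ratio of the members over HE-YSA. It had 239 counts in HE-AGM, 71.8 CPM (62.97 to 81.5), against 2 counts in HE-YSA, 1.05 CPM (0.13 to 3.79), a log2 ratio of 5.78 (4.23 to 9.15). In HE-AGM the median cell had 23.6 CPM and the highest 466 CPM. Both HE-YSA counts came from YS_m2 cell 5, and YS_m1 had 0 counts, which allows up to 3.57 CPM (3 counts). With each cell thinned to 15000 counts, 23 of 49 HE-AGM cells held an Mki67 count (46.9%, exact 95% binomial interval 32.5 to 61.7) against 1 of 52 HE-YSA cells (1.92%, 0.0487 to 10.3). These intervals cover counting error over cells only and take the cells as independent.

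Top2a, the topoisomerase that untangles replicated chromosomes, was at 374 CPM in HE-AGM and 50.6 CPM in HE-YSA (log2 2.88, 2.58 to 3.19, and 2.43, 2.08 and 4.36 by run). Its level over HE-AGM cells ran from 0 through a median of 226 to 1296 CPM, and over HE-YSA cells from 0 through 0 to 494 CPM, and the ranges overlapped. Thinned cells with a Top2a count numbered 33 of 49 and 14 of 52. Kif11, the kinesin that pushes spindle poles apart, had 88 counts against 2 (26.4 and 1.05 CPM, log2 4.34, 2.76 to 7.72). Both HE-YSA counts of Kif11 came from YS_m2 cell 7. Of the thinned cells with a Top2a count, 33 of 33 in HE-AGM and 12 of 14 in HE-YSA also held Cdk1.

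The CDK-binding subunits Cks1b and Cks2, coded by short messages, were higher as well. Cks1b was at 211 CPM in HE-AGM (cells from 0 through 183 to 737) and at 36.999 CPM in HE-YSA (0, 15.9, 208), a log2 ratio of 2.51 (2.15 to 2.88) with 1.81, 2.85 and 2.79 by run. A thinned count of Cks1b was found in 40 of 49 and 19 of 52 cells. Cks2 was at 33.6 against 3.41 CPM (log2 3.20, 2.10 to 4.54).

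Further G2/M members were higher in each run. Birc5 (survivin, of the chromosomal passenger complex) was at 123.1 against 38.3 CPM (log2 1.68, 1.32 to 2.06). The mitotic cyclin gene Ccnb2 was at 91.6 against 29.5 CPM (1.63, 1.23 to 2.08), and with its pseudogene Ccnb2-ps, which can share reads, at 125 against 43.6 CPM. The Polo kinase Plk1 (1.401) and the checkpoint protein gene Bub3 (1.09, and 0.99 at the lowest without 1 cell, AGM_4 cell 11) were higher in each run too. Cenpf, a kinetochore protein gene, was at 173 against 32.3 CPM (2.41), but AGM_4 cell 3 held 61.4% of the HE-AGM counts and the ratio without it was 1.06. Of the 16 members called, 15 stayed at or above 2-fold whichever 1 cell was left out. Bub1 (1.16) was lower in run 1 (-0.76).

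For Ccnb1, the other mitotic B-type cyclin, the gene and a near-identical pseudogene, between which reads can be shared, lay in opposite directions. Ccnb1 was at 61.6 CPM in HE-AGM and 17.5 CPM in HE-YSA (log2 1.80, with -0.05 in run 1), while its pseudogene Ccnb1-ps was at 36.6 and 80.6 CPM. Gene and pseudogene together came to 98.2 and 98.1 CPM.

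Core mitotic genes that did not reach 2-fold included Cdk1 itself, at 348 against 235 CPM (log2 0.57, 0.41 to 0.73, positive in each run), the S to G2 cyclin gene Ccna2 (0.51), the ubiquitin-conjugating enzyme gene Ube2c (0.79), the Aurora kinases Aurka (0.41) and Aurkb (0.94), the spindle factors Tpx2 (0.69), Nusap1 (0.27) and Kif23 (0.34) and the condensin gene Smc4 (0.60). Cdc20, the mitotic activator of the anaphase-promoting complex, at -0.47, and the centromeric histone gene Cenpa, at -0.50, were below 0 in each run. The kinetochore motor gene Cenpe and the single-strand binding protein gene Rpa2 had fewer than 20 counts over both groups.

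Among the S members the MCM helicase genes differed by less than 2-fold between HE-AGM and HE-YSA apart from Mcm4. The log2 ratio was 0.20 for Mcm2, 0.57 for Mcm3, 0.12 for Mcm5, -0.01 for Mcm6 and -0.07 for Mcm7. Mcm4 was at 34.5 against 12.1 CPM (1.49, 0.86 to 2.23), and 82.6% of its AGM counts lay on 1 transcript of 423 bases. Tipin, which protects stalled forks with Timeless, was at 111 against 39.4 CPM (1.49). The sliding clamp gene Pcna, at 23.2 against 11.9 CPM (0.94, 0.25 to 1.68), had runs of both signs and shares reads with pseudogenes. The nucleotide genes lay at -0.04 (Tyms), 0.69 (Rrm1), 0.99 (Rrm2) and 0.26 (Dut), the origin and fork genes at -0.24 (Gins2), 0.59 (Cdc45), 0.36 (Cdc6) and -0.12 (Fen1), and the histone, repair and cyclin E genes at -0.37 (Slbp), -0.19 (Chaf1b), -0.14 (Ung), 0.49 (Ccne1) and -0.81 (Ccne2, 11 counts in each).

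Against HE-YSP, the other YS HE, HE-AGM was again higher in Mki67, Kif11 and the CKS genes, but by less in the sum. This comparison shares the HE-AGM cells with the one above. The G2/M sum differed by 0.30 (0.25 to 0.35, and 0.22, 0.40 and 0.34 by run), and the S sum by -0.07 (-0.12 to -0.02), which turned to 0.15 with size factors, where the median of all genes moved by 0.22, and to 0.11 with E10.5 YS cells alone. Of 50 counted members 17 were higher in HE-AGM and 1 lower, where 34.1% of all genes were higher and 14.5% lower. By list these were 9 of 23 G2/M and 5 of 22 S members higher and 0 lower. The median log2 ratio was 0.57 for G2/M, -0.11 for S and 0.37 for all genes.

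Mki67 was at 5.98 CPM in HE-YSP (log2 3.52, 2.68 to 4.66), found in 3 of 49 thinned cells (6.12%, 1.28 to 16.9), and Kif11 at 2.39 CPM (3.30, 2.06 to 5.37). Cks1b was at 38.98 CPM (2.43, 2.08 to 2.83), with cells from 0 through 29.6 to 275 CPM, and was found in 17 of 49 thinned cells. Top2a was at 107 CPM (1.81, 1.58 to 2.05), with cells from 0 through 45.2 to 1067 CPM. Without YS_b2 cell 8 the Mki67 ratio was 4.18. Of 23 thinned HE-YSP cells with a Top2a count 23 also held Cdk1. Ccnb2 (1.63), Cks2 (1.24), Plk1 (1.18), Mcm4 (1.65), Tipin (1.28) and Rrm1, a ribonucleotide reductase subunit gene (1.498, with 67.6% and 29.8% of AGM counts on Rrm1-202 and Rrm1-206, both annotated as targets of nonsense-mediated decay), were higher in each run. Cenpf (2.05) was at 0.71 without AGM_4 cell 3. Pcna (1.1998), Rrm2 (1.02) and Ccnb1 (1.13, with -0.79 in run 1) also reached 2-fold, had runs of both signs, and came to 0.91, 0.90 and 0.93 at the lowest when 1 cell was left out. With Ccnb1-ps, Ccnb1 came to 98.2 CPM in HE-AGM and 143 CPM in HE-YSP, so that the direction turned. Cdk1 was level (0.03, -0.12 to 0.17), as was Aurkb (0.01, -0.25 to 0.27), at 342 and 112 CPM in HE-YSP.

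The D cyclins differed from each other. Ccnd2 was at 144 CPM in HE-AGM (cells from 0 through 95.2 to 513), 33.1 CPM in HE-YSA (0, 0, 463) and 0.60 CPM in HE-YSP, where 1 cell held the only count. The log2 ratio was 2.11 (1.74 to 2.53) over HE-YSA and 7.33 (5.43 to 13.22) over HE-YSP, positive in each run. After thinning, 31 of 49, 17 of 52 and 1 of 49 cells held a Ccnd2 count. Ccnd1 was highest in HE-YSP, with 6.01, 4.20 and 24.5 CPM in the same order, and was lower in HE-AGM than in HE-YSP by 2.01 on the log2 scale but with run 3 at 0.46, and at -2.68 without AGM_3 cell 27. Ccnd3 stayed within 2-fold at 260, 178 and 211 CPM.

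The inhibitor gene Cdkn1b was at 25.5 CPM in HE-AGM against 8.40 in HE-YSA and 1.196 in HE-YSP (log2 1.57 and 4.10, run 2 below 0 in both), with 56.2% of the HE-YSA counts in YS_m2 cell 5. Without it the first ratio was 2.66, and without either of the 2 YS_b2 cells that held the HE-YSP counts (cells 11 and 13) the second was 4.82. Cdkn1a was at 7.21, 14.2 and 1.79 CPM, from 24, 27 and 3 counts. All 3 HE-YSP counts came from YS_b3 cell 26, and its runs had both signs against HE-AGM.

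**Figure D2:**
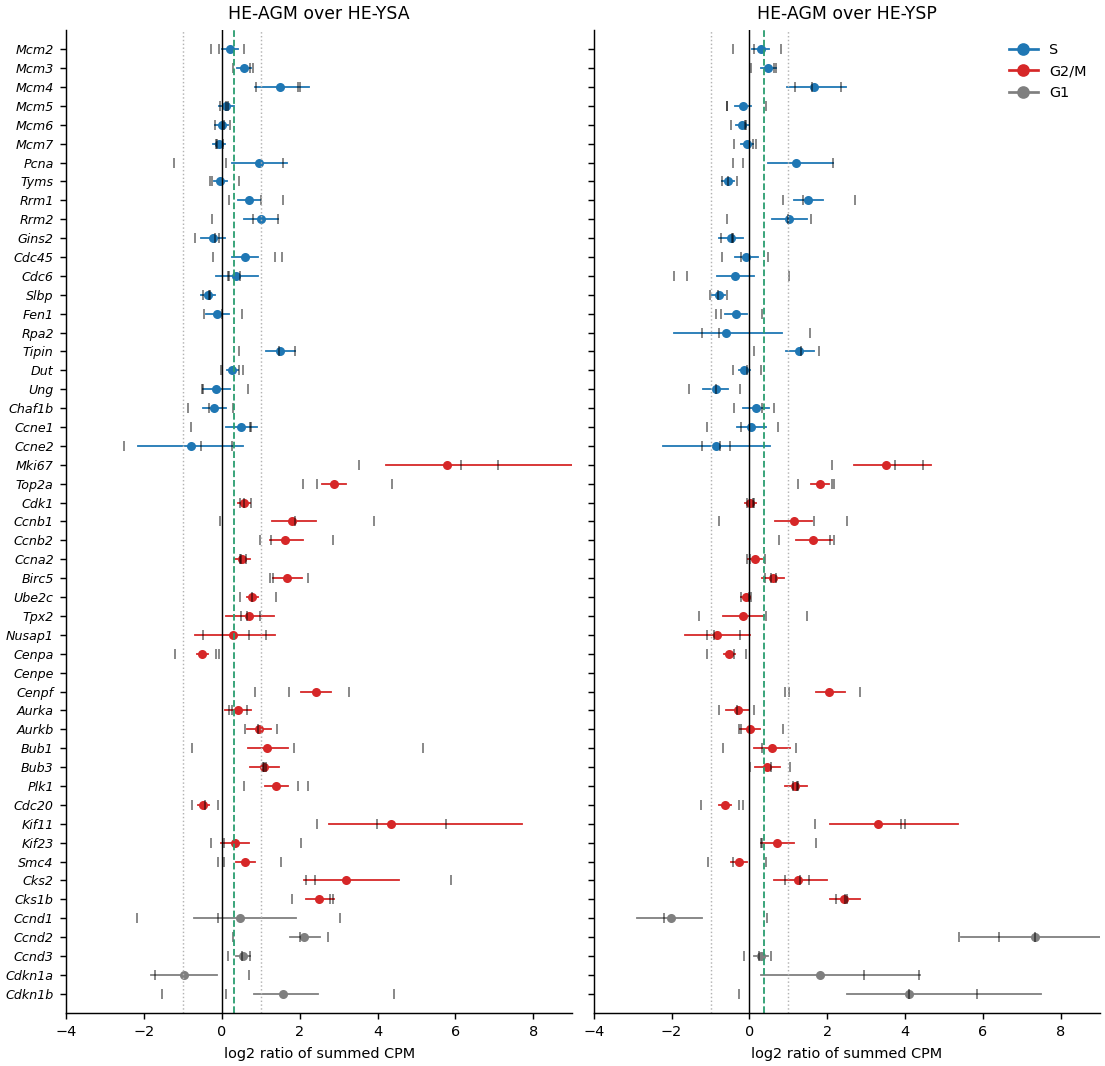
Log2 ratio of summed CPM of each counted member in HE-AGM over HE-YSA and over HE-YSP, with 95% counting intervals as bars (cut at 9), black ticks for the 3 runs, a green dashed line at the median of all genes and dotted lines at 2-fold. Mki67 (5.78 and 3.52), Kif11 (4.34 and 3.30), Cks1b (2.51 and 2.43) and Ccnd2 (2.11 and 7.33) lie far to the right of the medians of 0.31 and 0.37, while Cdc20 and Cenpa lie left of 0.

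Between the YS HE populations, G2/M genes were lower in HE-YSA. The G2/M sum differed by -0.48 (-0.54 to -0.42, and -0.38, -0.35 and -0.72 by run), and 19 of 21 counted G2/M members had a ratio at or below 0. Of 46 counted members 2 were higher in HE-YSA and 5 lower, where 11.5% of all genes were higher and 9.47% lower. Cks2 (-1.96), Birc5 (-1.07) and the spindle gene Nusap1 (-1.11) were lower in each run, and Top2a (-1.07) in 2 of them. Leaving out 1 cell brought Birc5 to -0.87 (YS_b2 cell 23), Top2a to -0.78 (YS_b3 cell 6) and Nusap1 to -0.70 (YS_b2 cell 23) or to -1.75 (YS_m1 cell 13). The kinase genes Cdk1 (-0.54), Aurkb (-0.93) and Aurka (-0.71) were lower in each run without reaching 2-fold. Mki67 had 2 and 10 counts, too few to count. Ccnd2 (5.22, 3.26 to 11.11) and Cdkn1a (2.79, 1.28 to 5.35) were the members called higher in HE-YSA, and Ccnd1 (-2.48, and -3.08 without YS_m2 cell 23) was lower except in run 3. YS_m1 cell 17 held 48.1% of the HE-YSA counts of Cdkn1a, and the ratio without it was 1.92. In the S list 0 of 21 members were called, and the S sum differed by -0.24 with run 3 at 0.07. Cells of E10.5 made up 35 of the 52 HE-YSA and 20 of the 49 HE-YSP cells. Over E10.5 cells without those of AGM library names (33 and 20 cells) the S sum differed by -0.05.

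From early to late HE-AGM (AGM_4 over AGM_3) the S sum differed by 0.19 (0.13 to 0.25, with run 3 at -0.01) and the G2/M sum by 0.18 (0.13 to 0.23, with 0.16, 0.22 and 0.18 by run). Of the AGM_4 cells 18 of 20, and of the AGM_3 cells 8 of 29, came from 1 cDNA plate, and within that plate, a comparison chosen after seeing the data, the S sum differed by 0.35 and the G2/M sum by -0.02, with 3 members called. Of 48 counted members 3 were higher and 2 lower in late HE-AGM, where 9.11% of all genes were higher and 17.2% lower. Ccnd2 was at 204 CPM in AGM_4 and 101 in AGM_3 (1.01, 0.75 to 1.28), 0.88 without AGM_4 cell 19, and 0.46 within the plate. Ung, which removes uracil from DNA, was at 77.7 against 37.7 CPM (1.04, 0.60 to 1.49), and from 0.66 without AGM_4 cell 16 to 1.65 without AGM_3 cell 27 (0.75 within the plate). Cks2 was at 17.5 against 45.1 CPM (-1.34, -2.10 to -0.71, and -1.32 within the plate). Cenpf was at 2.09 and, without the AGM_4 cell (cell 3) that held 5428 CPM of it, at -0.26. Mki67 (0.83) and Cdk1 (0.55) were higher in each run but under 2-fold, and Top2a (-0.20), Ccnb1 (0.15), Pcna (-0.05) and Ccnd3 (-0.12) had runs of both signs. Ccnd1 (-1.02, 20 counts) also had runs of both signs, with -2.79 without AGM_4 cell 20 and -0.05 without AGM_3 cell 27.

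From AGM_4 to AGM_5 the inhibitor gene Cdkn1a was higher, at 35.8 against 5.75 CPM (2.56, 1.56 to 3.92, positive in each run), with all 8 AGM_4 counts in cell 6. In AGM_5, 5 of 21 thinned cells held it and the highest reached 172 CPM. Mki67 was lower, at 36.4 against 96.4 CPM (-1.40, -1.88 to -0.94), and -0.94 without AGM_4 cell 18. Rrm1 (-1.27), the cytokinesis kinesin gene Kif23 (-1.11, and -0.50 without the same AGM_4 cell) and Cdkn1b (-1.02, from -1.61 without AGM_5 cell 4 to -0.57 without AGM_4 cell 15) were lower in each run. Of 48 counted members 3 were higher and 6 lower, where 9.89% of all genes were higher and 15.3% lower. Cks2 (1.47), Ccnd1 (2.09, from 0.73 without AGM_5 cell 12 to 3.87 without AGM_4 cell 20), Ccnd3 (-1.03, and -0.82 without AGM_4 cell 16) and Cenpf (-2.97, and -0.62 without AGM_4 cell 3) had runs of both signs. The S sum differed by -0.13 and the G2/M sum by -0.14 (-0.10 and -0.21 within the plate, which held 18 of the 20 AGM_4 cells and each of the 21 AGM_5 cells), and Cdk1 (-0.01), Mcm2 (0.13), Mcm6 (-0.01) and Top2a (0.29) stayed near level. The inhibitor gene Cdkn1c, of the regulator list below, was at 96.7 against 441 CPM (-2.18).

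From early to late HE-YSA (YS_m2 over YS_m1) neither sum kept its sign over the runs (S 0.11, G2/M 0.07, the latter with -1.10, 0.11 and 1.80 by run). Over E10.5 cells alone the G2/M sum differed by 0.53 with 7 members called, and over 12 and 7 cells of 1 cDNA plate, all of E10.5 and compared after seeing the data, by 0.67 with 11 called. Of 42 counted members 1 was higher and 2 lower, where 11.1% of all genes were higher and 11.7% lower. The higher member was Mcm4, at 16.9 against 5.95 CPM on 23 counts (1.41, 0.02 to 3.29, and 2.44 without YS_m1 cell 27). Ccnd2 was lower, at 15.96 against 54.7 CPM (-1.75, -2.67 to -0.95, and -1.37 without YS_m1 cell 1, the cell from an AGM cDNA project, which held 463 CPM). Mcm5 (0.72) and Mcm7 (0.35) were higher in each run under 2-fold. Cenpf (-1.02) had runs of both signs, from -1.65 without YS_m2 cell 13 to -0.59 without YS_m1 cell 9.

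From HE-YSA to the LMP-skewed progenitor (YS_p1 over YS_m2) mitotic genes were higher in runs 1 and 3. Their sum was 3900 against 2103 CPM, a log2 ratio of 0.89 (0.81 to 0.97, with 1.17, -0.06 and 0.96 by run), and the S sum differed by 0.11 with runs of both signs. Over E10.5 cells without AGM library names (15 of the 17 and 20 of the 29) the G2/M sum differed by 0.55, with 3 members called in place of 11. Over 9 and 12 cells of the same cDNA plate it differed by 0.51, with 7 called. Of 40 counted members 10 were higher and 1 lower, where 10.6% of all genes were higher and 15.9% lower. In the G2/M list 9 of 19 were higher and 0 lower, with a median of 0.92 against 0.02 for all genes. Aurka, the centrosome kinase gene, was at 204 against 46.01 CPM (2.14, 1.67 to 2.65, and 4.13, 0.38 and 1.89 by run). Cdk1 was at 446 against 193 CPM (1.21, 0.95 to 1.48), with cells from 22.6 through 424 to 1018 CPM in YS_p1 and from 0 through 142 to 955 CPM in YS_m2. Smc4 (1.37), Aurkb (1.35), Birc5 (1.04, and 0.76 without YS_p1 cell 16), Ccnb1 (1.68, and 1.07 without YS_p1 cell 17) and Tipin (1.47, and 2.13 without YS_m2 cell 7) were higher in each run. With Ccnb1-ps, Ccnb1 came to 236 against 102 CPM.

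Ube2c (1.53, with -1.37 in run 2), Cenpf (1.49, and 2.12 without YS_m2 cell 13) and Plk1 (1.31, and 0.98 without YS_p1 cell 13) reached 2-fold in the sum but not in each run. Mcm4, on 20 counts, was lower (-2.19, -5.62 to -0.41, both YS_p1 counts in cell 16), and the other MCM genes lay between -0.45 (Mcm2) and 0.20 (Mcm6). Mki67 had 11 counts in YS_p1 and 2 in YS_m2, and Ccnd2 2 and 17, each below the limit.

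From early to late HE-YSP (YS_b3 over YS_b2) the S sum was higher and the stages differed. The S sum was 3291 against 2494 CPM (0.40, 0.32 to 0.48, with 0.11, 0.71 and 0.53 by run), and the G2/M sum differed by -0.23 with runs of both signs. Cells of E9, E9.5 and E10.5 numbered 10, 2 and 13 in YS_b2 and 6, 11 and 7 in YS_b3. At these stages the S sum was 3697, 3558 and 2779 CPM in YS_b3 and 2395, 3570 and 2392 CPM in YS_b2, so it was level at E9.5. Over E10.5 cells alone the S sum differed by 0.22 and the G2/M sum by -0.72 with 13 members called, and over 4 and 8 cells of the same cDNA plate the S sum was at -0.04, with Mcm3 at 2.03 but Mcm7 (-0.20), Cdc6 (-0.11) and Ung (-0.28) below 0. Of 41 counted members 5 were higher and 3 lower, where 13.4% of all genes were higher and 12.6% lower. The 4 S members called, of 18 counted, were Mcm3, Mcm7, Ung and Cdc6, and 13 of the 18 had a ratio above 0. Of the 5 S members with E2F letters in the promoter, Mcm3, Mcm7 and Cdc6 were called and Mcm5 and Mcm6 were not. Any part of E2F was not tested. Mcm3 was at 267 against 99.9 CPM (1.41, 1.05 to 1.80, and 1.24, 1.21 and 1.94 by run), with cells from 116 through 260 to 550 CPM in YS_b3 and from 0 through 81.5 to 372 CPM in YS_b2. All 24 YS_b3 cells held a thinned Mcm3 count, against 17 of 25 YS_b2 cells. Mcm7 was at 381 against 180 CPM (1.08, 0.79 to 1.36, and 0.93 without YS_b3 cell 4).

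Ung was at 156 against 44.7 CPM (1.79, 1.27 to 2.37). Mcm5 (0.48) and Mcm6 (0.42) were higher in each run under 2-fold, and Mcm2 (-0.42) was not. Cdc6, the MCM loader gene (1.04, with -0.27 in run 1, and 0.82 without YS_b3 cell 20), and Tpx2 (3.13, from 1.80 without YS_b3 cell 7 to 4.24 without YS_b2 cell 10, with -0.49 in run 2) had runs of both signs. Ccnd1 was lower, with 3 counts against 38 (3.65 and 44.7 CPM, -3.41, -5.95 to -1.95), the 3 counts lying in YS_b3 cell 14. Bub1, the checkpoint kinase gene (-1.87, -3.02 to -0.94, and -2.61 without YS_b3 cell 20), and Nusap1 (-1.25, -2.81 to 0.02, from -1.91 without YS_b3 cell 22 to -0.67 without YS_b2 cell 23) were lower in each run.

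From late HE-YSP to the EMP-skewed progenitor (YS_p2 over YS_b3) 1 of 39 counted members was higher and 1 lower, where 8.17% of all genes were higher and 12.1% lower. Cks1b was the higher one, at 70.1 against 33.1 CPM (1.07, 0.38 to 1.81, positive in each run, and 0.99 without YS_p2 cell 3). Tpx2 (-1.02) was at 0.31 without YS_b3 cell 7. The S sum differed by 0.21 and the G2/M sum by 0.11, with runs of both signs. Over E10.5 cells alone they differed by 0.35 and 0.65 with 10 members called. Mcm2 (0.94) and Top2a (-0.92) came closest to 2-fold among the replication and mitosis genes. Comparisons along a route share the late HE cluster, so their values are not independent.

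**Figure D3:**
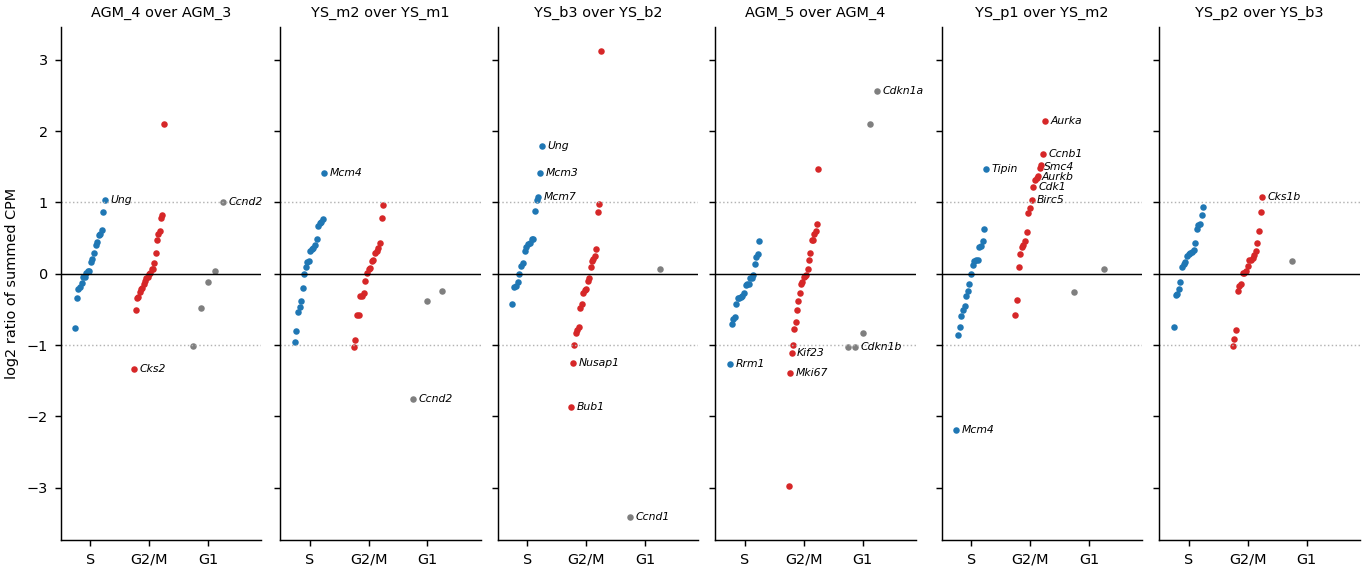
Log2 ratio of summed CPM of each counted member in the 6 comparisons along the AGM, HE-YSA and HE-YSP routes, where points are members, ordered by value within the S, G2/M and G1 lists, dotted lines mark 2-fold and named points reached 2-fold with the same sign in the 3 runs. The panel of YS_p1 over YS_m2 shows most G2/M members above 0 (17 of 19), and that of YS_b3 over YS_b2 shows 13 of 18 S members above 0.

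**Figure D4:**
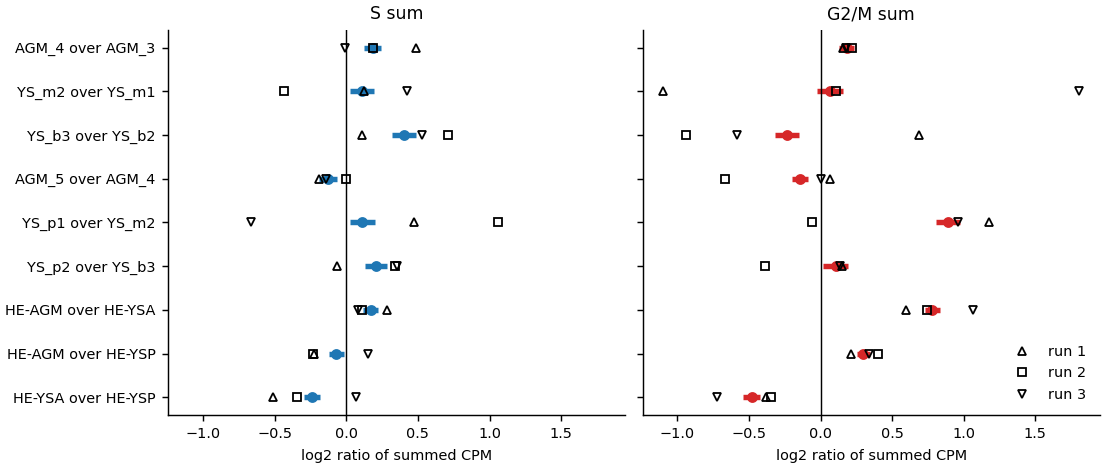
Log2 ratio of the S and of the G2/M sum in the 9 comparisons, with 95% counting intervals and a marker for each run. The G2/M sum of HE-AGM over HE-YSA (0.78) is above 0 in each run, while that of YS_m2 over YS_m1 (0.07) spreads from -1.10 to 1.80, far beyond its counting interval.

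Other cell cycle genes were taken as 3 further lists, 44 S genes, 52 G2/M genes and 36 regulators. In HE-AGM over HE-YSA, 15 of 40 counted S genes were higher and 1 lower, 27 of 51 G2/M genes higher and 3 lower, and 11 of 33 regulators higher and 1 lower, with medians of 0.75, 1.21 and 0.42, beside 31.8% of all genes higher and 13.3% lower. Among genes called with the same sign in the 3 runs, the 3 highest of each list were Wdr76, Blm and Tk1, then Sgo1, Gtse1 and Cdc25b, then Rbl1, E2f2 and E2f8. Their log2 ratios lay between 2.52 (Tk1, thymidine kinase) and 5.60 (Wdr76, whose HE-YSA counts all lay in YS_m2 cell 6, a cell with an AGM library name). Leaving out 1 cell took Tk1 to between 2.37 and 2.88, E2f8 to between 2.85 and 3.83 and Wdr76 to between 5.39 and 7.16. The genes lower in HE-AGM included Chaf1a, a chromatin assembly gene, at 2.40 against 7.87 CPM (-1.67, and -0.22 without YS_m1 cell 21), and the centromere chaperone gene Hjurp (-1.57). In HE-AGM over HE-YSP, 15 of 39 S genes were higher and 0 lower, 20 of 50 G2/M genes higher and 4 lower, and 14 of 32 regulators higher and 0 lower, beside 34.1% and 14.5% of all genes. The lowest with the same sign in the 3 runs were Cdkn3 (-1.99, and -2.62 without AGM_3 cell 12), Hjurp (-1.73) and Cdca3 (-1.39). Cdkn1c, the inhibitor p57, was at 496 CPM in HE-AGM against 103 in HE-YSA and 29.9 in HE-YSP. In HE-YSA over HE-YSP, 2 S genes were higher and 2 lower of 38, 0 and 5 of 44 G2/M genes, and 5 and 1 of 26 regulators, beside 11.5% and 9.47% of all genes.

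In YS_b3 over YS_b2, 9 of 33 S genes were higher and 0 lower, beside 13.4% and 12.6% of all genes, with a median of 0.61. The highest S gene with the same sign in the 3 runs was the chromatin remodeller gene Hells, at 59.7 against 5.88 CPM (3.22, and 3.82 without YS_b2 cell 7). The MYC family gene Mycn was at 167 against 30.6 CPM (2.43). In YS_p1 over YS_m2, 10 of 40 G2/M genes were higher and 1 lower, beside 10.6% and 15.9% of all genes. The growth regulator gene Myc was at 414 against 79.8 CPM (2.37) there, and Cdkn1c, with 3 counts, at 4.57 against 98.6 CPM (-4.22, -6.73 to -2.84, and -5.34 without YS_p1 cell 16). In YS_p2 over YS_b3, 3 of 33 S and 6 of 40 G2/M genes were higher, 0 and 3 lower, beside 8.17% and 12.1% of all genes, and Myc was at 385 against 115 CPM (1.74). Of the regulators 1 was higher and 6 lower of 32 in AGM_4 over AGM_3, 5 and 2 of 21 in YS_m2 over YS_m1, 2 and 1 of 19 in YS_b3 over YS_b2, 1 and 4 of 29 in AGM_5 over AGM_4, 1 and 3 of 19 in YS_p1 over YS_m2, and 2 and 2 of 17 in YS_p2 over YS_b3. All genes were higher and lower at 9.11% and 17.2%, 11.1% and 11.7%, 13.4% and 12.6%, 9.89% and 15.3%, 10.6% and 15.9%, and 8.17% and 12.1% in the same order. Beside the same shares stand the S and G2/M genes not given above. S genes numbered 2 higher and 0 lower of 39 in AGM_4 over AGM_3, and 0 and 4 of 33 in YS_m2 over YS_m1. They numbered 1 and 4 of 40 in AGM_5 over AGM_4, and 4 and 2 of 33 in YS_p1 over YS_m2. G2/M genes numbered 4 and 3 of 50 in AGM_4 over AGM_3, and 2 and 1 of 33 in YS_m2 over YS_m1. They numbered 2 and 5 of 49 in AGM_5 over AGM_4, and 4 and 5 of 42 in YS_b3 over YS_b2.

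Message length moved with tissue and cDNA project, which cannot be told apart, and along the AGM route. Several of the members that separated AGM from YS have long messages. The mean annotated length of the transcripts to which a cell's counts were assigned ran from 1105 to 1859 bases over 70 AGM cells (median 1413) and from 969 to 1353 over 135 YS cells (median 1144). The 3 YS cells that stood apart are not among these and lay within the YS range. YS_m1 cell 1 was at 1152 bases, and the 5 AGM cells of its cDNA project ran from 1544 to 1859. YS_m1 cell 4 and YS_m2 cell 6, of the same cDNA project as the other YS cells, were at 1174 and 1185. Grouped by the length of each gene's main transcript, the median log2 ratio of all genes in HE-AGM over HE-YSA was -0.12 under 1000 bases, -0.15 from 1000 to 2000, 0.45 from 2000 to 3000, 0.94 from 3000 to 4000, 1.12 from 4000 to 5000 and 1.22 from 5000 on. Mki67, Top2a, Cenpf and Ccnd2 belong to the last bin, where the 4 members had a median of 2.64, and Kif11 to the bin before it. Cks2, at 692 bases, and Cks1b, at 849, belong to the shortest bin, where the 12 members had a median of 0.74. Over HE-YSP the bins ran from -0.11 to 1.28, and between the YS populations from -0.01 to 0.11. Over summed counts the mean length was 1553 bases in AGM_3, 1443 in AGM_4 and 1333 in AGM_5, and 1112 (YS_p1) to 1193 (YS_m1) in YS clusters. Along the routes the bin from 5000 bases on had a median of -0.37 in AGM_4 over AGM_3 and -0.29 in AGM_5 over AGM_4. It was -0.40 in YS_p1 over YS_m2, -0.29 in YS_b3 over YS_b2, -0.07 in YS_m2 over YS_m1 and -0.09 in YS_p2 over YS_b3. Under 1000 bases the same comparisons lay between 0.003 (YS_p2 over YS_b3) and 0.10 (YS_b3 over YS_b2). The part of length in the results, between tissues or along the routes, was not tested.

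The same genes were read as longer transcripts in AGM cells. Of 44 members with enough counts, 28 had a longer mean assigned transcript in AGM in each run and 3 a shorter one, where 37.8% of all genes were longer and 8.05% shorter. By list, 15 of 20 G2/M members were longer and 0 shorter, and 10 of 20 S members longer and 3 shorter (the fork genes Cdc45 and Fen1 and the chromatin assembly gene Chaf1b). The median difference was 377 bases over the G2/M members, 104 over the S members and 81.0 over all genes.

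Cenpf showed the widest gap, at 9458 bases in AGM and 1209 in YS. The full-length coding transcript Cenpf-204 (11130 bases) took 83.8% of its AGM counts and 5.3% of its YS counts, and Cenpf-201 (609 bases, annotated as a decay target) 14.7% and 90.7%. By run the Cenpf-204 share was 95.4%, 45.7% and 70.3% in AGM and 3.1%, 10.0% and 5.1% in YS. AGM_4 cell 3 held 55.7% of the AGM counts of Cenpf, and without it the mean was 7360 bases and the Cenpf-204 share 63.4%. Bub3-203 (3414 bases) took 63.9% against 7.1%, and Bub3-202 (678 bases) 12.7% against 54.8%. Ccnd2-201 (6330 bases) took 68.1% against 9.0%, on 67 YS counts. The retained-intron transcript Tpx2-205 (733 bases) took 20% against 82.2%. Plk1-201 took 88.4% against 51.3%, with the decay-annotated Plk1-203 (722 bases) at 11.6% and 48.7%. Smc4-206 (1163 bases) took 41.4% against 91.9%. Cdk1-202 took 98% and 94.9%.

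Some members were counted mainly on transcripts that are not annotated as coding in either tissue. Tyms (thymidylate synthase) lay to 90.2% in AGM and 86.5% in YS on the retained-intron transcript Tyms-206. The decay-annotated Cenpa-202 took 73.9% and 76.4% of Cenpa counts.

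**Figure D5:**
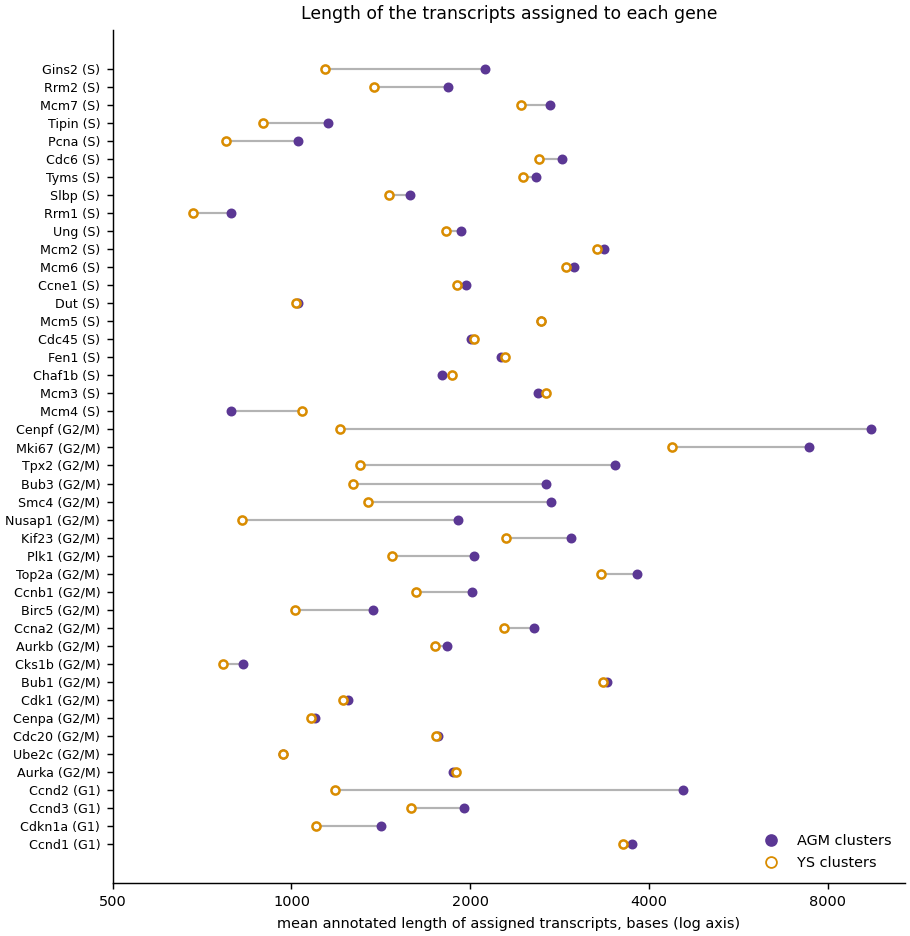
Mean annotated length, in bases on a log axis, of the transcripts to which the counts of each of 44 members were assigned, with a filled point for the AGM clusters, an open point for the YS clusters and a grey line between them. Most filled points lie right of the open ones, farthest for Cenpf at 9458 against 1209 bases, while both points of Cdk1 and of Ube2c lie close together.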

How the data were processed

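Cells of mouse embryos were sorted and their Smart-seq2 cDNA was barcoded and read on 3 nanopore runs. Per the study's methods, the authors basecalled with Dorado, trimmed with bbduk, dropped chimeras by YACRD and porechop, aligned with Minimap2 to GENCODE transcripts keeping at most 10 alignments per read, and quantified transcripts with NanoCount. The submitters' processing notes name minimap2 2.26, R 4.3.0 and DESeq2 1.40.2. The authors deposited, for each cell, estimated counts of 278369 transcripts and TPM of the same transcripts. A read that matches several transcripts is shared among them by the estimate, so near-identical genes and isoforms can trade counts.

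Here the estimated counts were summed per gene over transcripts of the same symbol. Of the 221 cells, 13 whose total lay under 17595 counts (the median of 38780 less 1 scaled median absolute deviation) were left out. No column lay outside the samples, and no pair of cells held identical counts. Counts were then summed over the cells of a group. No test across groups was made, since the labels tie no cell to an embryo and cells are not replicates. For each of 9 comparisons the log2 ratio of summed CPM, with 0.5 counts added to each sum, was given with a 95% counting interval (exact Poisson for a level, exact conditional binomial for a ratio) and for each nanopore run. A gene entered a comparison with 20 summed counts and was called at 2-fold. Shares of cells came from cells thinned to 15000 counts. All 51 members are accounted for. Named in a comparison were members called with the same direction in the 3 runs, up to 10 each way, and, where counted, the MCM genes, Pcna, Mki67, Top2a, Cdk1, Ccnb1, the D cyclins, Cdkn1a and Cdkn1b. Of the other lists the 3 genes highest and lowest by log2 ratio could be named, among those called with the same direction in the 3 runs. Other named genes were chosen after their values were seen. The members and lists were chosen with earlier results of these data known.

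Promoters came from RefSeq (GRCm38.p6) by symbol, and transcript lengths and biotypes from the files. Computation used R 4.3.3 with DESeq2 1.42.0 (size factors as an alternative scaling) and Python 3.11.15 with pandas 2.3.3, scipy 1.17.1, matplotlib 3.10.9 and numpy 2.4.6. The log2 ratio and its counting interval were tested on simulated Poisson sums of AGM_4 and AGM_3. Spread between cells and the other steps were not simulated. Alternatives were DESeq2 size factors, the deposited TPM, coding transcripts alone, other library-size and count limits, another added count, E10.5 YS cells alone, leaving out runs, cells and the 3 YS cells with AGM names or projects, and, added after seeing the data, cells of 1 cDNA plate alone within each tissue.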

Additional observations from a re-analysis of the deposited data

Results flagged for a closer look

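Ccnd2, which codes for cyclin D2 of the G1 decision, moved in opposite directions from early to late HE in AGM and in HE-YSA. It was at 101 CPM in AGM_3 and 204 CPM in AGM_4, a log2 ratio of 1.01 with 0.67, 0.83 and 1.21 in the 3 runs. It was at 54.7 CPM in YS_m1 and 15.96 CPM in YS_m2, a log2 ratio of -1.75 with -2.49, -1.06 and -1.45 by run. Every run of the first comparison lay above 0 and every run of the second below 0. The difference between the comparisons was not tested, since each group counts as 1 sample. Within the cDNA plate that held most AGM cells (18 AGM_4 and 8 AGM_3 cells) the first ratio was 0.46. Without YS_m1 cell 1, the YS cell from an AGM cDNA project, the second ratio was -1.37.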

How the results depend on the processing

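No paired analysis was possible because each sample is 1 cell, the cell numbers follow the order of the samples and pair nothing, and no result comes from a test. Over 27 sums and counts of called members and 16 other settings, 214 of 234 log2 ratios of the sums kept their sign. Fewer kept their size. Of the same 234 ratios, 131 stayed within counting error, 88 moved beyond it and another 15 were classed as reversed. Of the counts of called members, 100 stayed within 1.5 times and 35 did not. Removing the 3 YS cells with AGM projects or names moved no sum or count beyond its counting error or 1.5 times. The setting of E10.5 YS cells alone also left out those with AGM library names. The cause of the changes below was not tested.

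DESeq2 size factors moved the median of all genes by 0.19 in HE-AGM over HE-YSA and 0.22 in HE-AGM over HE-YSP. They gave S sums of 0.36 and, with the sign turned, 0.15, and G2/M sums of 0.97 and 0.52, with 0.26 (S) and 0.26 (G2/M) in AGM_4 over AGM_3, -0.085 (G2/M) in AGM_5 over AGM_4, and 1 called member in YS_p2 over YS_b3. Of all called genes 70.5% and 70.1% were higher in HE-AGM by totals, and 78.3% and 77.7% by size factors. The deposited TPM averaged over cells gave S 0.23 and G2/M 0.61 in HE-AGM over HE-YSA, G2/M 0.24 in HE-AGM over HE-YSP, S -0.34 and G2/M -0.37 in HE-YSA over HE-YSP, S 0.27 and G2/M 0.073 in AGM_4 over AGM_3, S 0.31 in YS_p1 over YS_m2, and G2/M -0.16 in YS_m2 over YS_m1, -0.054 in YS_b3 over YS_b2, -0.068 in AGM_5 over AGM_4 and -0.059 in YS_p2 over YS_b3, where 4 members were called. Coding transcripts alone gave S 0.048 and G2/M 0.84 in HE-AGM over HE-YSA, S -0.16 in HE-AGM over HE-YSP, S 0.26 and G2/M 0.25 in AGM_4 over AGM_3, S 0.26 in YS_m2 over YS_m1, 0.56 in YS_b3 over YS_b2 and -0.039 in AGM_5 over AGM_4, and G2/M 1.01 in YS_p1 over YS_m2.

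With E10.5 YS cells alone the sums were S 0.11 in HE-AGM over HE-YSP, S -0.045 in HE-YSA over HE-YSP, G2/M 0.53 in YS_m2 over YS_m1, S 0.22 and G2/M -0.72 in YS_b3 over YS_b2, S 0.21 and G2/M 0.55 in YS_p1 over YS_m2, and S 0.35 and G2/M 0.65 in YS_p2 over YS_b3. The last 4 comparisons then called 7, 13, 3 and 10 members. A library-size limit on the log scale kept 187 cells and gave S -0.007 in YS_p1 over YS_m2, G2/M 0.22 in YS_p2 over YS_b3, and 5 members in YS_m2 over YS_m1 and 4 in YS_p2 over YS_b3, where all 221 cells called 1. With 5 in place of 20 summed counts, members called numbered 7 in YS_m2 over YS_m1, 17 in YS_p1 over YS_m2, 5 in YS_p2 over YS_b3 and 12 in HE-YSA over HE-YSP. With 100 they numbered 0, 7, 0 and 2 there, 3 in YS_b3 over YS_b2 and 5 in AGM_5 over AGM_4. With 5 counts added they were 1 in YS_m2 over YS_m1 and 0 in YS_p2 over YS_b3.

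Cells of the cDNA plate with most cells of each tissue, a setting chosen after seeing the data, gave S 0.35 and G2/M -0.0204 with the sign turned in AGM_4 over AGM_3 (3 members), S 0.22 and G2/M 0.67 in YS_m2 over YS_m1 (11 members), S -0.044 with the sign turned and G2/M -0.61 in YS_b3 over YS_b2, G2/M -0.21 in AGM_5 over AGM_4, G2/M 0.51 in YS_p1 over YS_m2 (7 members), S 0.50 and G2/M 0.65 in YS_p2 over YS_b3 (10 members, 4 cells in each), and S -0.0016 in HE-YSA over HE-YSP.

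Leaving out 1 run or 1 cell gave S sums of 0.11 to 0.22 in HE-AGM over HE-YSA, -0.23 to 0.018 in HE-AGM over HE-YSP, -0.44 to -0.091 in HE-YSA over HE-YSP, 0.0495 to 0.36 in AGM_4 over AGM_3, -0.18 to -0.08 in AGM_5 over AGM_4, -0.11 to 0.27 in YS_m2 over YS_m1, -0.16 to 0.70 in YS_p1 over YS_m2, 0.29 to 0.59 in YS_b3 over YS_b2 and 0.10 to 0.35 in YS_p2 over YS_b3. In the same order the G2/M sums were 0.66 to 0.89, 0.25 to 0.42, -0.56 to -0.36, 0.079 to 0.25, -0.27 to 0.0275, -0.59 to 0.85, 0.69 to 1.11, -0.75 to 0.039 and -0.042 to 0.27, and the members called 15 to 21, 16 to 19, 5 to 10, 2 to 6, 7 to 12, 2 to 10, 9 to 13, 7 to 12 and 1 to 6. The sign turned for S in YS_m2 over YS_m1 (-0.11 without run 3), in YS_p1 over YS_m2 (-0.08 and -0.16 without runs 1 and 2) and in HE-AGM over HE-YSP (0.018 without run 1). It turned for G2/M in AGM_5 over AGM_4 (0.0275 without run 2), in YS_b3 over YS_b2 (0.039 without run 2 and 0.0004 without YS_b2 cell 23), in YS_m2 over YS_m1 (-0.59 without run 3 and -0.08 without YS_m2 cell 13) and in YS_p2 over YS_b3 (-0.02 without run 1 and -0.042 without YS_p2 cell 4). Groups of 17 to 29 cells and totals from 18131 counts limit genes with few counts most.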

Other observations

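The YS labels also give the embryonic stage of all but 1 of the YS cells used. Leaving out the 3 YS cells with AGM projects or names, the S sum of HE-YSP was 2951 CPM (2795 to 3114) over 16 cells of E9, 3560 CPM (3374 to 3753) over 13 cells of E9.5 and 2538 CPM (2431 to 2649) over 20 cells of E10.5. YS_b3 gave 6 of the 16, 11 of the 13 and 7 of the 20 cells, so stage and cluster moved together. The G2/M sum was 2651, 3151 and 2875 CPM. In HE-YSA the S sum was 1940 CPM over 2 cells of E9, 2644 over 14 cells of E9.5 and 2460 over 33 cells of E10.5, and the G2/M sum was 3594, 1884 and 2032 CPM. The lowest, median and highest cell for G2/M genes had 861, 2626 and 9767 CPM in HE-YSP and 245, 1111 and 10078 CPM in HE-YSA at E9.5, so that the ranges overlapped. Each stage of a group counts as 1 sample, and no test was made. By stage and cluster the S sum of YS_b3 was 3697, 3558 and 2779 CPM at E9, E9.5 and E10.5, and that of YS_b2 2395, 3570 and 2392 CPM.

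AGM_4 cell 3 held 5428 CPM of Cenpf, which is 81.4% of the Cenpf counts of its cluster. Transcripts annotated as coding took 84.1% of the members' counts in AGM and 79.0% in YS, retained introns 6.8% and 9.1%, and targets of nonsense-mediated decay 6.7% and 10.2%.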
